A study of Homo sapiens with 8 samples.

Results

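The RAB GTPases were followed by their transcripts in an AGO2 RIP-chip experiment on A431 cells, a human cutaneous squamous cell carcinoma line. Members were all genes whose symbol is RAB, a number and at most 1 further letter, with a probe well above background on each of the 4 input arrays, and the brightest such probe stood for the gene. Of 64 such symbols in the RefSeq gene table, 62 had a probe on the array, and 51 were measured, among 13665 measured genes in all. RAB1C and RAB40A had no probe. RAB3B, RAB3C, RAB6B, RAB6D, RAB9B, RAB19, RAB30, RAB33B, RAB39A, RAB39B and RAB41 did not pass on the input arrays and have no value here. No RIP array was used in choosing the members.

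All cells had received a synthetic microRNA mimic by transfection (10 nM), and lysates were made 24 h after it. The control groups received miR-NC, a negative control mimic, and the other groups received miR-634. From each kind of cell, RNA bound to AGO2 was taken by immunoprecipitation (RIP) and total RNA served as the input, which makes an input and a RIP group for each mimic, 4 groups in all, with 2 one-color 8 × 60K arrays each. For the input arrays the labels name normal rabbit IgG where the study's methods name total RNA, and they are treated here as input. The sources do not say whether the 2 arrays of a group came from separate transfections, so a p-value measures the spread between these arrays, which may be technical. A single cell line was used, and miR-634 was supplied from outside, so the values describe overexpression in this line.

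RAB GTPases are small proteins that switch between a GDP-bound and a GTP-bound form and mark the membranes of the secretory and endocytic pathways. Exchange factors load them with GTP on a given membrane, effectors such as tethers and motors are recruited by the GTP-bound form, and GTPase-activating proteins turn them off. A lipid group added by geranylgeranyl transferase anchors them, and GDP dissociation inhibitors carry them back to the cytosol. MicroRNAs guide AGO2 to messenger RNAs, mostly through pairing of the seed (bases 2 to 8) with the 3′ untranslated region, and bound messages are often translated less or degraded. Enrichment (RIP/input) measures how much of a transcript was held in the AGO2 fraction relative to the total RNA, and the fold change of enrichment compares it between miR-634 and miR-NC cells.

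The microRNA is shown because the enrichment of every member below is compared with and without it. The mature RNA from RefSeq has 22 bases, is encoded at chr17:66787132-66787153 of GRCh38.p14, plus strand, and is given with the seed in capitals:
hsa-miR-634: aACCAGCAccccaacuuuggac
A message that pairs with all of this seed would carry UGCUGGU. The 3′ untranslated regions of the RAB genes were not searched for it here.

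Levels are log2 intensities relative to the array's 75th percentile over probes well above background on all arrays, and a level of 1 probe is not compared with that of another. The input arrays had 45.6% to 45.8% of spots well above background, against 40.0% for the miR-634 RIP and 33.6% and 34.5% for the miR-NC RIP. The arrays shared a slide and a scan, but the input arrays lay in row 1 of it and the RIP arrays in row 2, so the row and the RIP cannot be told apart. The miR-NC arrays lay in columns 1 and 2 and the miR-634 arrays in columns 3 and 4, so the column and the mimic cannot be told apart either. Of 9 epidermal and squamous carcinoma markers (EGFR, KRT5, KRT14, KRT17, KRT6A, SFN, TP63, CDH1 and DSP), 9 were measured in the input. Of 9 markers of fibroblasts, leukocytes, endothelium and hepatocytes, VWF alone was measured, at levels of -6.09 to -4.71 over the 8 arrays. Of the 51 RAB transcripts, 44 were well above background on at least 1 array of every group, and of these RAB37 alone missed it on an array, 1 of the 2 of the miR-634 RIP. RAB3D, RAB11B, RAB14, RAB27A, RAB33A, RAB42 and RAB44 were not well above background on either miR-NC RIP array, and for them only bounds are given further on.

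In miR-NC cells, 15 of 51 RAB transcripts were higher in the RIP than in the input and 18 were lower, by limma with an adjusted p under 0.05. Among the 44 well above background on at least 1 array of every group, 14 were higher and 16 lower. Over all measured genes, 27.2% were called higher and 43.4% lower in this comparison. RAB37, a GTPase of secretory granules, had the highest RIP/input, at 12.2-fold (log2 3.61 ± 0.25 SE, adjusted p = 8.25e-05). A second RAB37 probe was not well above background on any array. RAB37 was followed by RAB1A of ER-to-Golgi transport, at log2 2.38 ± 0.07, and RAB3A of regulated exocytosis, at 1.85 ± 0.10. The late endosomal RAB7A had a log2 RIP/input of 1.73 ± 0.18 and the recycling RAB4B one of 1.55 ± 0.15. RAB27B, which acts in granule and exosome release, lay furthest below its input, at -2.30 ± 0.21 on its brighter probe. Its dimmer probe gave -0.77, closer to the input than RAB22A, at -1.68. In miR-634 cells, 24 RAB transcripts were higher in the RIP than in the input and 13 lower, where all genes gave 31.3% and 46.4%. The members had a median log2 RIP/input of 0.24 in miR-634 cells against -0.12 in miR-NC cells, where all genes had -0.24 and -0.21. Centered on the median gene, 27 members were higher and 9 lower in miR-634 cells, beside 38.6% and 38.2% of all genes. In miR-NC cells 20 were higher and 13 lower, beside 35.4% and 33.5% of all genes. Scaling on the spike-in probes shifts the median of all genes by -1.45 in miR-634 cells and by -2.53 in miR-NC cells. It gave 6 members higher and 36 lower with miR-634, beside 5.06% and 84.2% of all genes. With miR-NC, 1 member, RAB37, was higher and 49 were lower, beside 0.41% and 98.2% of all genes. Where a member is said below to lie above or below its input, the percentile scaling is meant.

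**Figure D1:**
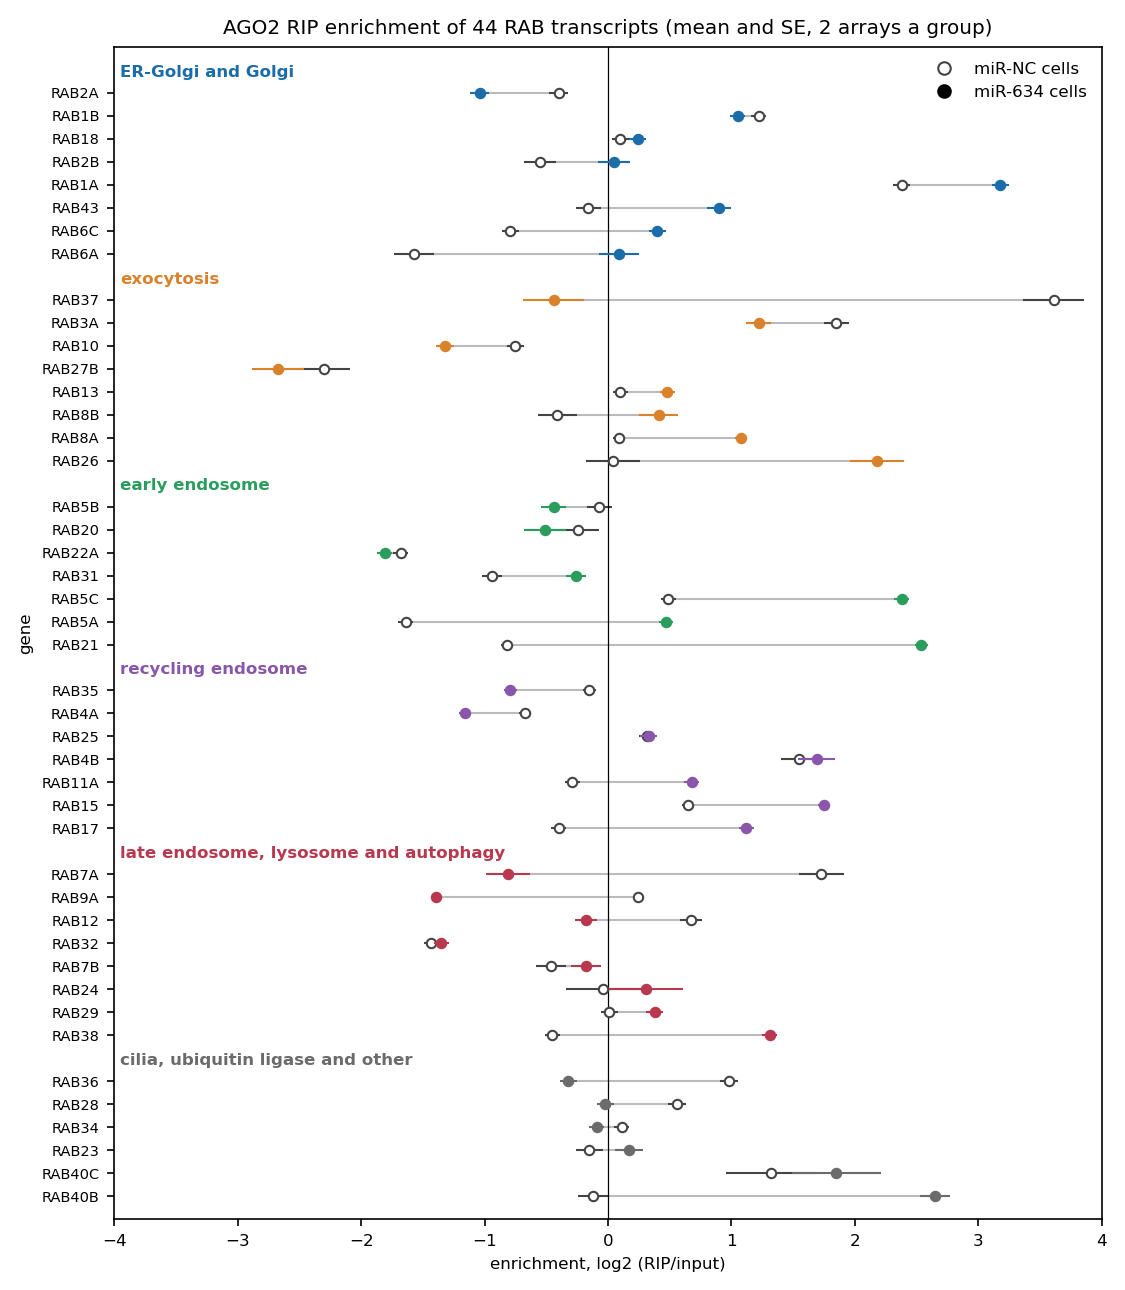
Enrichment of the 44 RAB transcripts that were well above background on at least 1 array of every group, as log2 (RIP/input) on the x axis, by gene on the y axis and grouped by trafficking step, with open points for miR-NC cells, filled points for miR-634 cells and bars for the SE (2 arrays per group). RAB21 moved from -0.82 to 2.54 and RAB40B from -0.12 to 2.65, whereas RAB37 moved from 3.61 to -0.44 and RAB7A from 1.73 to -0.81.

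Enrichment was higher in miR-634 than in miR-NC cells for 20 of 51 RAB transcripts, which is 39.2% of them beside 24.9% of all genes, and lower for 11, which is 21.6% beside 34.7% of all genes. A change of more than 2-fold was seen upward in 12 members (23.5%, all genes 12.8%) and downward in 4 (7.84%, all genes 7.85%). The median log2 fold change of enrichment was 0.33 in the members and -0.18 in all genes. In the 44 members that were well above background on at least 1 array of every group, 19 were higher and 11 lower, with a median of 0.31. The authors' own scaling, on the percentile over all probes, gave 21 members higher and 10 lower, beside 26.4% and 25.6% of all genes. It shifts the median of all genes by 0.12. Scaling on the spike-in probes shifts it by 1.09 and gave 38 higher and 2 lower, beside 60.4% and 1.37% of all genes, so the direction of a member near the median depends on the scaling. Of the 11 falls, those of RAB7A, RAB9A, RAB36 and RAB37 stayed below 0 with the spike-in scaling, at -1.46, -0.54, -0.22 and -2.97. The other 7 lay above 0. Only RAB7A (adjusted p = 0.000543) and RAB37 (adjusted p = 1.13e-07) passed the test as falls there, while RAB9A (adjusted p = 0.112) and RAB36 (adjusted p = 0.521) did not. These 3 scalings move all genes of an array alike, so the members' median necessarily lay the same 0.51 above that of all genes under each. It lay 0.47 above with quantile normalization, and 0.28 above with quantile normalization after another background correction (normexp).

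**Figure D2:**
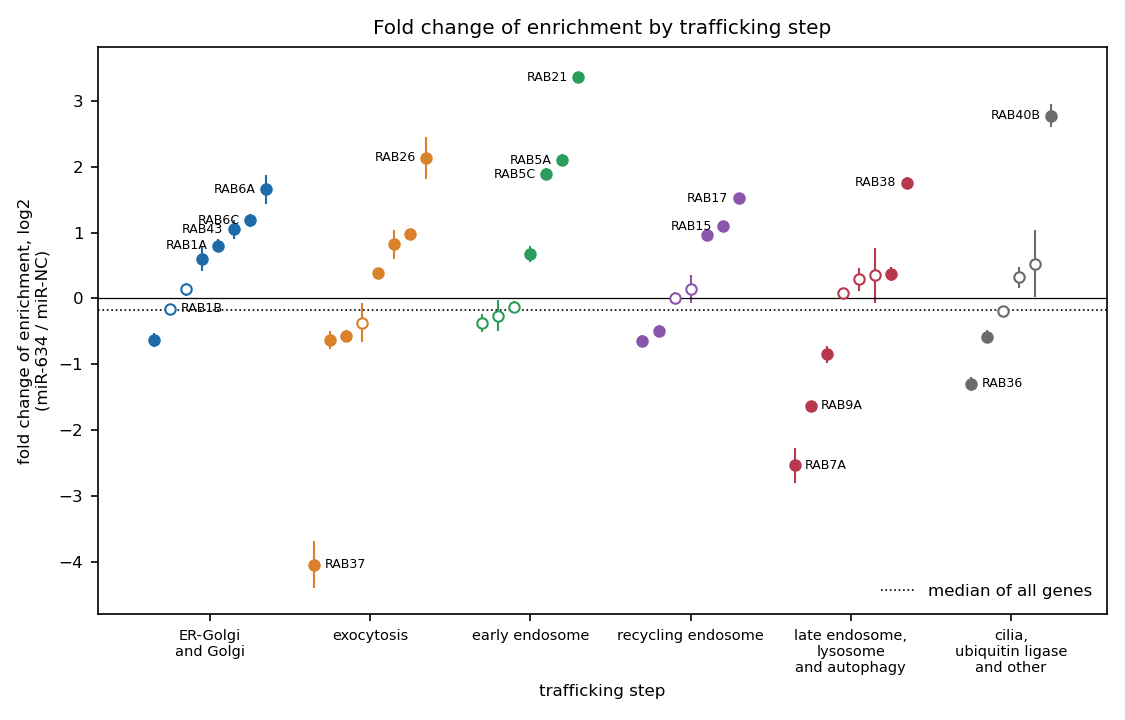
Log2 fold change of enrichment (miR-634 over miR-NC cells, y axis) of the 44 RAB transcripts well above background on at least 1 array of every group, by trafficking step (x axis), with bars for the SE, filled points for an adjusted p under 0.05 and open points for the rest. The dotted line is the median of all genes, -0.18; RAB21 lies at 3.36, RAB40B at 2.78 and RAB37 at -4.05.

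RAB1A and RAB1B carry cargo from the endoplasmic reticulum to the Golgi and are close paralogs. RAB1A (NM_004161) was at levels of 1.75 and 1.88 in the miR-NC input, 4.16 and 4.23 in the miR-NC RIP, 1.0 and 0.97 in the miR-634 input, and 4.23 and 4.11 in the miR-634 RIP. Its input levels were thus lower in miR-634 cells on both arrays, while the RIP levels of the 2 kinds of cells overlapped. RAB1B (NM_030981) was at 1.03 and 1.11, 2.30 and 2.27, 1.07 and 1.15, and 2.12 and 2.20 on the arrays in the same order. Its input levels overlapped between the cells, and its RIP levels were slightly lower in miR-634 cells.

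The RIP/input of RAB1A was 9.06-fold in miR-634 cells against 5.19-fold in miR-NC cells, a log2 fold change of enrichment of 0.80 ± 0.10 (SE, adjusted p = 0.00106). Its input fell by 0.83 on the log2 scale (SE 0.07, adjusted p = 0.0033), and its RIP level changed by -0.03 ± 0.07 (adjusted p = 0.734). With the spike-in scaling its RIP change was 0.84 (adjusted p = 0.0015) and its log2 RIP/input in miR-NC cells -0.16 (adjusted p = 0.471). With any of the 8 arrays left out, the input change of RAB1A stayed between -0.90 and -0.77 with an adjusted p of at most 0.0411. RAB1B went from 2.32-fold to 2.07-fold, a log2 fold change of enrichment of -0.16 ± 0.08 (adjusted p = 0.139), with an input change of 0.04 ± 0.06 and a RIP change of -0.12 ± 0.06 (adjusted p = 0.105). The difference between the genes was not tested. With the spike-in scaling the fold change of enrichment was 1.89 for RAB1A (adjusted p = 1.36e-05) and 0.92 for RAB1B (adjusted p = 0.00958), both higher in miR-634 cells.

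Each of these genes had a second, dimmer probe. For RAB1A it gave a log2 fold change of enrichment of 1.06, an input change of -0.64 and a RIP change of 0.42, so the probes shared the lower input and differed in the RIP. The mean of the RAB1A probes had a RIP change of 0.20 (adjusted p = 0.0232). For RAB1B the dimmer probe gave a fold change of enrichment of -0.80, an input change of 0.07 and a RIP change of -0.73. On either pair of probes the enrichment change was positive for RAB1A and negative for RAB1B with the percentile scaling. The -0.16 of the brighter RAB1B probe did not pass the test and lay near the median of all genes, -0.18. With the spike-in scaling the brighter probes of both genes rose.

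**Figure D3:**
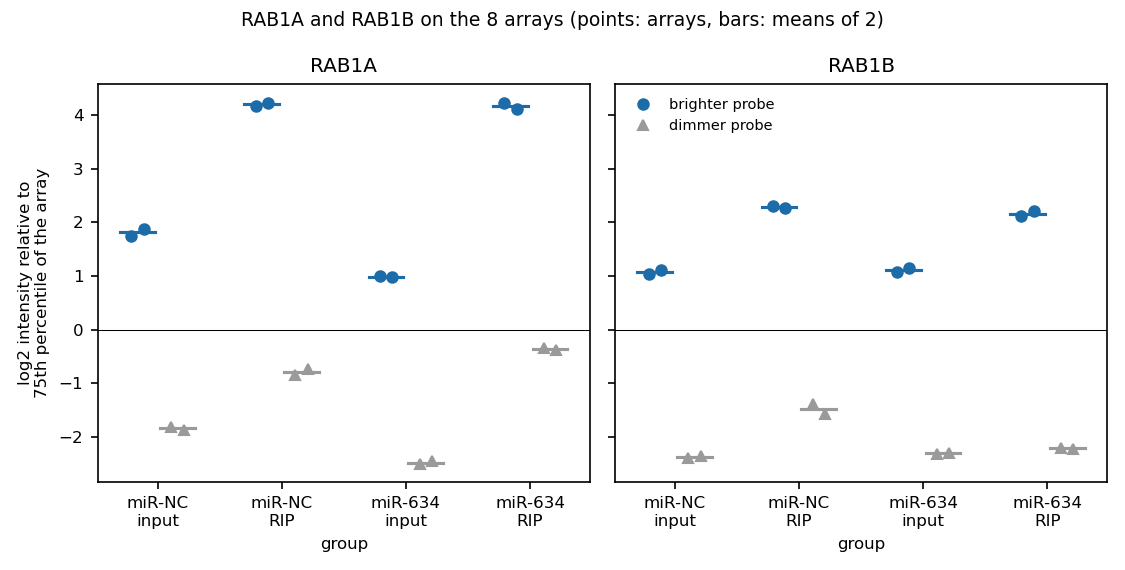
Levels of RAB1A and RAB1B on each of the 8 arrays (y axis, log2 intensity relative to the 75th percentile of the array; x axis, group), with circles for the brighter probe, triangles for the dimmer probe, 1 point per array and bars for the mean of 2 arrays. The input of RAB1A is lower in miR-634 cells on both probes, from 1.75 and 1.88 to 1.0 and 0.97 on the brighter, whereas that of RAB1B stays between 1.03 and 1.15 on its brighter probe.

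Among the 9 measured members of the ER-Golgi and Golgi step, 5 (55.6%) rose in enrichment and RAB2A alone (11.1%) fell. Over all genes, 24.9% rose and 34.7% fell. RAB6A, which drives retrograde transport from and within the Golgi, was at -1.82 and -1.96 in the miR-NC input, -3.69 and -3.24 in the miR-NC RIP, -2.35 and -2.53 in the miR-634 input, and -2.40 and -2.30 in the miR-634 RIP. It was below its input in the AGO2 fraction of miR-NC cells and level with it in miR-634 cells (-1.36 with the spike-in scaling), a log2 change of 1.66 ± 0.22 (adjusted p = 0.00162). RAB6C, an intronless copy of RAB6A, rose by 1.19 ± 0.10, and signal of these 2 genes may be shared between their probes. RAB43, which acts in ER-Golgi traffic, rose by 1.05 ± 0.14. RAB2B of the Golgi rose by 0.60 ± 0.18 (adjusted p = 0.0298), a call that was lost at an adjusted p of 0.0613 to 0.0922 when miR-NC input 1 or 2, miR-NC RIP 1, miR-634 input 2 or miR-634 RIP 1 was left out, with values of 0.47 to 0.65. Its paralog RAB2A, of the ER-Golgi intermediate compartment, fell by 0.63 on the log2 scale (SE 0.11, adjusted p = 0.00374). RAB18 of the endoplasmic reticulum and lipid droplets had a value of 0.14 ± 0.10 (adjusted p = 0.292) on its brighter probe, and its dimmer probe gave 0.64. The dimmer probe of RAB2B gave 1.18, but was not well above background on either miR-NC RIP array.

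Of the 10 exocytic members, 5 rose and 3 fell, where 1 of the rises is that of RAB3D, for which only a bound is given. RAB26, a secretory granule GTPase, was at -3.67 and -3.70 in the miR-NC input, -4.01 and -3.29 in the miR-NC RIP, -4.79 and -4.76 in the miR-634 input, and -2.52 and -2.67 in the miR-634 RIP. Its input was lower and its RIP higher in miR-634 cells with no overlap, and enrichment rose by 2.14 ± 0.32 (adjusted p = 0.0023). The 2 miR-NC RIP arrays of RAB26 lay apart, so that its log2 RIP/input in miR-NC cells was 0.04 with both, 0.40 without miR-NC RIP 1 and -0.32 without miR-NC RIP 2.

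RAB8A and RAB8B serve transport from the Golgi to the plasma membrane, and RAB8A also acts at the primary cilium. RAB8A was at 0.07 and 0.02 in the miR-NC input, 0.10 and 0.17 in the miR-NC RIP, 0.12 and 0.13 in the miR-634 input, and 1.21 and 1.20 in the miR-634 RIP. Only its miR-634 RIP levels stood apart, and enrichment rose by 0.98 ± 0.07 (adjusted p = 0.000115). RAB8B was at -4.31 and -4.33 in the miR-NC input, -4.64 and -4.82 in the miR-NC RIP, -4.94 and -5.41 in the miR-634 input, and -4.71 and -4.82 in the miR-634 RIP. Its RIP levels overlapped between the cells and its input was lower in miR-634 cells, as with RAB1A, but with the spike-in scaling its RIP change was 0.83 (adjusted p = 0.00476). The rise of RAB8B, 0.82 ± 0.22 (adjusted p = 0.0231), had an adjusted p of 0.0575 to 0.0672 and values of 0.73 to 0.82 when miR-NC input 1 or 2, miR-NC RIP 2 or miR-634 RIP 1 was left out. RAB13, which acts in polarized transport to tight junctions, rose by 0.38 ± 0.08.

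RAB37 showed the largest fall of any member. It was at -5.39 and -5.62 in the miR-NC input, -1.87 and -1.92 in the miR-NC RIP, -5.63 and -5.50 in the miR-634 input, and -6.40 and -5.61 in the miR-634 RIP. The signal stood out on the miR-NC RIP arrays alone, and the probe was well above background on 1 of the 2 miR-634 RIP arrays. A dimmer probe of the same transcript was not well above background on any array, at -7.22 and -7.48 in the miR-NC RIP. The high signal there thus rests on 1 probe. On that probe the fold change of enrichment was -4.05 ± 0.36 on the log2 scale (adjusted p = 0.000323). RAB3A, which controls regulated exocytosis in neurons and endocrine cells, was at -2.79 and -2.87 in the miR-NC RIP and -3.59 and -3.38 in the miR-634 RIP, and its enrichment fell by 0.63 on the log2 scale (SE 0.14). RAB10, of basolateral and GLUT4 vesicle exocytosis, fell by 0.57 on the log2 scale (SE 0.09). RAB27B had a value of -0.37 ± 0.30 (adjusted p = 0.338), and of -0.70 (adjusted p = 0.0106) without miR-634 RIP 1.

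Of the 7 early endosomal members, 4 (57.1%) rose and none passed the test downward, beside 24.9% and 34.7% of all genes. The largest rise of all 51 was that of RAB21 (NM_014999), a GTPase of integrin endocytosis. It was at 0.77 and 0.73 in the miR-NC input, -0.09 and -0.06 in the miR-NC RIP, -0.18 and -0.25 in the miR-634 input, and 2.33 and 2.32 in the miR-634 RIP. The input was lower and the RIP higher in miR-634 cells, with a gap on each side much wider than that between replicates. The RIP/input went from 0.565-fold to 5.81-fold, a 10.3-fold change (log2 3.36 ± 0.07, adjusted p = 6.17e-06), and the input fell by 0.96 on the log2 scale (SE 0.05, adjusted p = 0.00119). A dimmer probe of RAB21, matched to the transcript ENST00000261263, gave a fold change of enrichment of 1.13 and an input change of -0.56. Its RIP/input was -0.43 in miR-634 cells, below its input where the brighter probe was above. This probe was assigned to RAB21 only through the study's list of miR-634 targets, which was drawn in part from enrichment on these arrays. Its rise is therefore not separate support for that of the brighter probe.

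RAB5A, RAB5B and RAB5C act in the fusion of early endosomes and overlap in function. RAB5A was at -1.17 and -1.13 in the miR-NC input, -2.82 and -2.75 in the miR-NC RIP, -1.09 and -1.22 in the miR-634 input, and -0.68 and -0.70 in the miR-634 RIP. RAB5C was at -1.63 and -1.61, -1.07 and -1.19, -1.54 and -1.42, and 0.89 and 0.89 in the same order. RAB5B was at -3.32 and -3.24, -3.47 and -3.24, -3.21 and -3.36, and -3.70 and -3.75. RAB5A and RAB5C stood higher in the miR-634 RIP on both arrays, and RAB5B stood lower.

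Enrichment rose by 2.10 ± 0.09 for RAB5A (adjusted p = 2.39e-05) and by 1.89 ± 0.09 for RAB5C (adjusted p = 3.52e-05), while that of RAB5B was -0.37 ± 0.14 (adjusted p = 0.0634). Without miR-NC RIP 1, RAB5B had a value of -0.49. With the spike-in scaling RAB5B had 0.71 and passed the test in the other direction (adjusted p = 0.0483). In the input, RAB5A changed by 0.00 ± 0.06, RAB5B by 0.00 ± 0.10 and RAB5C by 0.14 ± 0.06, none of which passed the test. RAB31, which acts between the Golgi and endosomes and in EGFR traffic, rose by 0.68 ± 0.12. RAB20, which acts in the maturation of endosomes and phagosomes, had a value of -0.26 ± 0.24, and RAB22A, of early endosomes and recycling, one of -0.13 ± 0.09. RAB20 had -0.53 when miR-634 input 1 was left out. With the spike-in scaling both were higher and passed the test, RAB20 at 0.82 (adjusted p = 0.0172) and RAB22A at 0.95 (adjusted p = 0.00882).

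**Figure D4:**
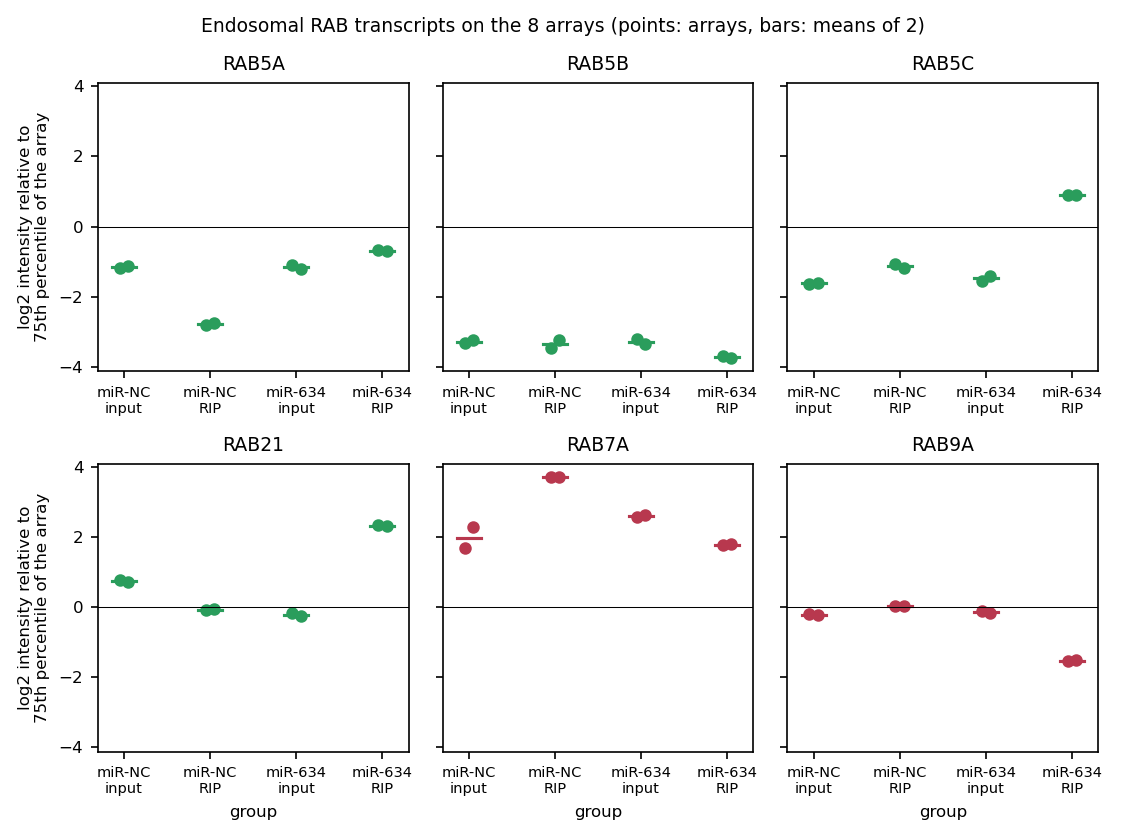
Levels of 4 early endosomal (RAB5A, RAB5B, RAB5C, RAB21) and 2 late endosomal (RAB7A, RAB9A) transcripts on each of the 8 arrays (y axis, log2 intensity relative to the 75th percentile of the array; x axis, group), with 1 point per array and bars for the mean of 2 arrays. In the miR-634 RIP, RAB5A, RAB5C and RAB21 lie above the miR-NC RIP, and RAB5B, RAB7A and RAB9A lie below it.

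Of the 9 members of recycling endosomes, 3 (33.3%) rose and 2 (22.2%) fell, beside 24.9% and 34.7% of all genes. RAB17, an epithelial GTPase of transcytosis, rose by 1.52 ± 0.08 on its brighter probe, and its dimmer probe gave 0.39. RAB15, of recycling endosomes, rose by 1.1 ± 0.07, and RAB11A, of slow recycling, rose by 0.97 ± 0.09. RAB11A was at -2.34 and -2.36 in the miR-NC input, -2.64 and -2.63 in the miR-NC RIP, -2.66 and -2.81 in the miR-634 input, and -2.07 and -2.03 in the miR-634 RIP. Its AGO2 fraction thus lay below the input in miR-NC cells and above it in miR-634 cells, but with the spike-in scaling it lay below the input in miR-634 cells too, at a log2 RIP/input of -0.77 (adjusted p = 0.00204).

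RAB35, which returns receptors and cadherins to the plasma membrane, fell by 0.64 on the log2 scale (SE 0.08, adjusted p = 0.00103). RAB4A, of fast recycling, fell by 0.49 on the log2 scale (SE 0.08, adjusted p = 0.00253), from -2.44 and -2.36 in the miR-NC RIP to -3.02 and -3.04 in the miR-634 RIP. Its paralog RAB4B was at -2.68 and -2.36 in the miR-NC RIP and -2.44 and -2.46 in the miR-634 RIP, with a fold change of enrichment of 0.14 ± 0.21 (adjusted p = 0.617). RAB25, the epithelial member of the RAB11 group, had a RIP/input of 0.33 ± 0.07 in miR-634 cells against 0.32 ± 0.07 in miR-NC cells, a change of 0.01 ± 0.09. With the spike-in scaling, RAB35 and RAB4A had positive fold changes of enrichment, at 0.44 and 0.59, neither of which passed the test.

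Late endosomes, lysosomes and autophagy had 8 measured members, of which 2 (25.0%) rose and 3 (37.5%) fell, near the 24.9% and 34.7% of all genes. RAB7A, which drives the fusion of late endosomes with lysosomes, was at 1.68 and 2.28 in the miR-NC input, 3.72 and 3.70 in the miR-NC RIP, 2.58 and 2.62 in the miR-634 input, and 1.77 and 1.80 in the miR-634 RIP. The AGO2 fraction lay above the input in miR-NC cells and below it in miR-634 cells, but with the spike-in scaling it lay below the input in miR-NC cells too, at -0.80. Enrichment fell by 2.54 on the log2 scale (SE 0.26, adjusted p = 0.000535). The 2 miR-NC input arrays of RAB7A lay apart, and its input change was 0.62 ± 0.18 (adjusted p = 0.0824) with both and 0.92 (adjusted p = 0.0168) without miR-NC input 2.

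RAB9A, of transport from late endosomes to the Golgi, was at 0.04 and 0.02 in the miR-NC RIP and -1.55 and -1.52 in the miR-634 RIP, with inputs between -0.23 and -0.12. The fall was thus in the RIP, at a fold change of enrichment of -1.63 ± 0.06 (adjusted p = 1.94e-05). With the spike-in scaling the RIP change of RAB9A was -0.69 (adjusted p = 0.00605). Its fold change of enrichment was then -0.54 and did not pass the test (adjusted p = 0.112). RAB12, which carries cargo from recycling endosomes to lysosomes, fell by 0.85 on the log2 scale (SE 0.13), and its dimmer probe gave -0.95. RAB38, of lysosome-related organelles such as melanosomes, rose by 1.76 ± 0.09 (adjusted p = 4.74e-05), with -2.39 and -2.31 in the miR-NC RIP and -0.49 and -0.62 in the miR-634 RIP. Its closest relative RAB32 had levels of -3.60 and -3.51 in the miR-NC RIP and -3.40 and -3.48 in the miR-634 RIP, and a value of 0.08 ± 0.08 (adjusted p = 0.447). RAB29, which recruits the kinase LRRK2, rose by 0.37 ± 0.10 (adjusted p = 0.02), a call lost at an adjusted p of 0.0596 to 0.0691 and values of 0.34 to 0.37 without miR-NC input 1, miR-NC input 2 or miR-634 input 1. RAB7B, of endosome-to-Golgi transport, had a value of 0.29 ± 0.17 and RAB24, of autophagosomes, one of 0.35 ± 0.42. Both passed the test when miR-NC RIP 1 was left out, at 0.47 for RAB7B and 0.82 for RAB24.

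The remaining 8 members act at cilia, in ubiquitin ligases or in ways less well known. Of them, 1 (12.5%) rose and 2 (25.0%) fell, beside 24.9% and 34.7% of all genes. RAB40B, which has a SOCS box and works as a subunit of a cullin 5 ubiquitin ligase, was at -3.52 and -3.50 in the miR-NC input, -3.50 and -3.77 in the miR-NC RIP, -4.05 and -4.31 in the miR-634 input, and -1.56 and -1.49 in the miR-634 RIP. The input was lower and the RIP higher in miR-634 cells, and enrichment rose by 2.78 ± 0.17 (adjusted p = 8.28e-05). RAB40C, a second SOCS box member, had a log2 RIP/input of 1.32 ± 0.36 in miR-NC cells (-1.21 with the spike-in scaling) and of 1.85 ± 0.36 in miR-634 cells. Its miR-NC input arrays lay at -3.89 and -2.73, and its fold change of enrichment was 0.53 ± 0.51 with both and 1.1 (adjusted p = 0.00906) without miR-NC input 1. Its RIP/input in miR-NC cells did not pass the test without miR-NC RIP 1, at 1.24.

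RAB36 went from -1.20 and -1.12 in the miR-NC RIP to -1.95 and -2.13 in the miR-634 RIP, with input levels of -2.14 and -2.15 and then -1.70 and -1.74. Enrichment fell by 1.30 on the log2 scale (SE 0.10, adjusted p = 0.000196), with a higher input and a lower RIP in miR-634 cells. With the spike-in scaling no comparison of the mimics passed the test for RAB36, at -0.22 for enrichment (adjusted p = 0.521), 0.20 for the input (0.609) and -0.02 for the RIP (0.951), and its input change did not pass without any 1 of the 4 input arrays. RAB28, of cilia, fell by 0.58 on the log2 scale (SE 0.10) on its brighter probe. A dimmer passing probe gave -1.89, but was well above background on only 1 array of each RIP group. RAB34, of cilium formation and lysosome positioning, had a value of -0.19 ± 0.08 and RAB23, of Hedgehog signaling, one of 0.32 ± 0.16, and neither passed the test. RAB34 had -0.26 without miR-634 RIP 2, and RAB23 had 0.44 without miR-NC RIP 2. With the spike-in scaling both were higher and passed the test, RAB34 at 0.89 (adjusted p = 0.0131) and RAB23 at 1.40 (adjusted p = 0.000561).

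In the input, which measures the total transcript, 2 members were higher in miR-634 cells, 3.92% beside 6.56% of all genes, and 8 were lower, 15.7% beside 7.54% of all genes. The falls were RAB26 by 1.09 on the log2 scale (SE 0.22), RAB21 by 0.96 (SE 0.05), RAB8B by 0.86 (SE 0.16), RAB1A by 0.83 (SE 0.07), RAB40B by 0.67 (SE 0.12), RAB23 by 0.62 (SE 0.11), RAB6C by 0.48 (SE 0.07) and RAB11A by 0.39 (SE 0.06). The rises were RAB36 by 0.42 (SE 0.07) and RAB35 by 0.32 (SE 0.05). With the spike-in scaling no member was higher in the input and 6 were lower, beside 0.0732% and 2.75% of all genes. RAB36 (0.20), RAB35 (0.10), RAB6C (-0.70, adjusted p = 0.0822) and RAB11A (-0.60, adjusted p = 0.146) did not pass. The authors' processed values gave 4 falls, without RAB6C, RAB11A, RAB23 and RAB26, and the same 2 rises, beside 3.18% and 3.94% of all genes. Only RAB1A and RAB21 passed the test in each of the 8 fits that left out 1 array. Without 1 of the 4 input arrays, 2 members were called lower when miR-NC input 1, miR-NC input 2 or miR-634 input 2 was left out, and 4 when miR-634 input 1 was left out. RAB6A, RAB7B and RAB43, at -0.55, -0.41 and 0.30, passed the test without miR-NC RIP 1 or without miR-NC RIP 2.

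The RIP level itself was higher in miR-634 cells for 20 members and lower for 13, where all genes gave 28.0% and 39.4%. With the spike-in scaling, which shifts the median RIP change of all genes by 0.86, it was higher for 38 members and lower for RAB7A, RAB9A and RAB37 alone, beside 62.6% and 3.19% of all genes, so the combinations that follow hold for the percentile scaling. The comparisons of RIP, input and enrichment share arrays, so they are set side by side here for the same 44 members. Of the 19 with higher enrichment, RAB6C, RAB11A, RAB21, RAB26 and RAB40B had a lower input and a higher RIP. RAB1A and RAB8B had a lower input without a called change of the RIP, which was called higher for both with the spike-in scaling, and the other 12 had a higher RIP without a called change of the input. Of the 11 with lower enrichment, RAB35 and RAB36 had a higher input and a lower RIP, and the other 9 had a lower RIP alone. RAB5B and RAB34 had a lower RIP and RAB18 a higher one without a called change of enrichment, and without miR-NC RIP 2 or miR-634 RIP 2 the RIP change of RAB5B had an adjusted p of 0.0538 or 0.0709, at -0.26 or -0.35. For 10 members, RAB1B among them, none of these 3 comparisons passed the test.

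**Figure D5:**
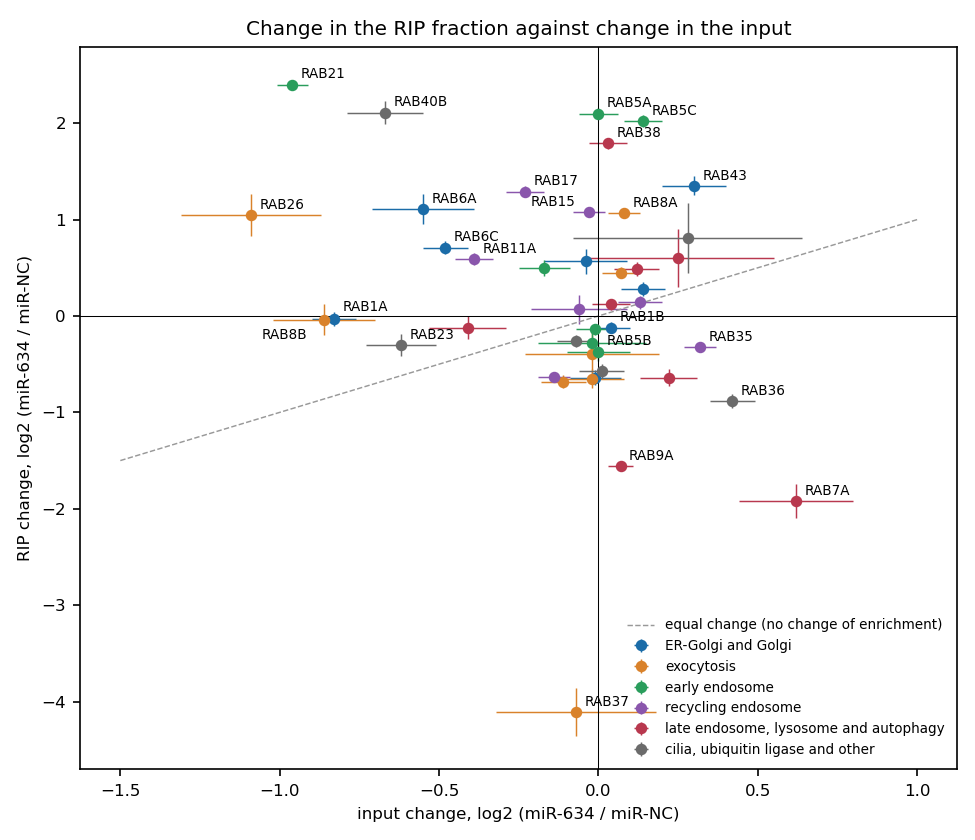
Change of the RIP level (y axis) against change of the input level (x axis), both log2 miR-634 over miR-NC cells, for the 44 RAB transcripts well above background on at least 1 array of every group, colored by trafficking step, with bars for the SE. The dashed line marks equal change; RAB1A and RAB8B lie left of 0 at RIP changes of -0.03 and -0.04, RAB21 lies at -0.96 in the input and 2.40 in the RIP, and RAB5A and RAB5C lie near 0 in the input at 2.10 and 2.02 in the RIP.

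For the 7 members that were not well above background in the miR-NC RIP, the RIP change is a bound, taken on each miR-NC RIP array against the lowest signal that was well above background or the probe's own signal, whichever was higher (the latter for RAB33A). RAB3D, of regulated exocytosis, was at -4.03 and -4.09 in the miR-634 RIP against a measured mean of -7.19 in the miR-NC RIP, at least 2.25-fold higher. The limma test was run on the measured values (adjusted p = 4.39e-05) and does not test this bound. Its inputs lay between -6.68 and -6.10 and overlapped between the cells. RAB42 was at least 1.24-fold higher and RAB33A at least 1.23-fold higher in the miR-634 RIP, and the latter did not pass the test (adjusted p = 0.296). RAB27A, of exosome and granule release, was at least 1.26-fold lower in the miR-NC RIP than in the miR-NC input. RAB11B, RAB14 and RAB44 allowed no bound above 1 in either comparison.

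RAB1A, RAB3D, RAB5B and RAB21 are on the study's list of proteins that were lower in miR-634 than in miR-NC cells. That proteomic comparison was made on other samples. RAB1A and RAB21 are also on the study's list of miR-634 targets, which was drawn in part from enrichment on these arrays. Their rise in enrichment here is thus not independent of that list. In these arrays RAB1A and RAB21 rose in enrichment and fell in input, and RAB3D had a higher RIP level. RAB5B had a RIP change of -0.37 ± 0.10 (adjusted p = 0.0171) and an input change of 0.00 ± 0.10. The protein values were not analysed here.

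Of 136 genes that act on RAB proteins, chosen from textbook roles, 116 were measured, and 41 (35.3%) rose and 22 (19.0%) fell in enrichment, beside 24.9% and 34.7% of all genes, with a median log2 change of 0.10 where all genes had -0.18. The prenylation and membrane cycle had 4 rises (57.1%) and 1 fall (14.3%) among 7 measured genes. RABAC1, a prenylated RAB acceptor, was at 3.05 and 3.09 in the miR-NC RIP and 4.73 and 4.67 in the miR-634 RIP, and rose by 1.68 ± 0.07. RABGGTB, the catalytic subunit of the RAB geranylgeranyl transferase, fell by 2.75 on the log2 scale (SE 0.50, adjusted p = 0.00516), with 3.82 and 3.81 in the miR-NC RIP and 1.71 and 1.64 in the miR-634 RIP. Its miR-NC input arrays lay apart, at -1.39 and -0.22.

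Among 41 exchange factors, 13 rose and 13 fell (31.7% each way), with a median of -0.02. TRAPPC5, a TRAPP subunit, and DENND2D, a DENN domain protein, rose by 2.43 ± 0.06 and 2.41 ± 0.12, while TRAPPC2, of the same TRAPP core, fell by 1.67 on the log2 scale (SE 0.11) and DENND5B by 1.31 (SE 0.25). Of 28 GTPase-activating proteins, 11 (39.3%) rose and USP6NL alone (3.57%) fell, by 1.06 on the log2 scale (SE 0.20), with a median of 0.22 and the largest rises in TBC1D22A (2.64 ± 0.10) and TBC1D8 (2.07 ± 0.13). Of 40 effectors, 13 (32.5%) rose and 7 (17.5%) fell, with a median of 0.17. EEA1, the tether that binds RAB5 on early endosomes, rose by 1.64 ± 0.08, from -3.34 and -3.20 in the miR-NC RIP to -1.86 and -1.90 in the miR-634 RIP. The largest falls were those of MYO5B, the motor that binds RAB11, by 1.04 on the log2 scale (SE 0.16), and of the golgin GOLGA5, by 0.82 (SE 0.19).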

How the data were processed

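The authors deposited the processed intensity of every spot, which Agilent Feature Extraction (12.0.1.1 per the file headers, 9.1 per the labels) had corrected for local background, without normalization between arrays. They also deposited log2 values processed in GeneSpring, which the scanner intensities give back when each array is scaled on its 75th percentile over every probe and each probe is centered on its median across arrays. They serve here as an alternative.

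Control and outlier spots were left out, spots of a probe averaged, and log2 intensities shifted by the array's 75th percentile over the 16808 of 58201 probes (28.9%) well above background on all 8 arrays. RefSeq accessions gave symbols for 31104 probes, and 2 more, the dimmer RAB21 probe among them, came from the study's list of miR-634 targets. The array design is annotated on hg19, so no gene coordinates are given. Genes counted as measured where all 4 input arrays had a probe of theirs well above background. The 4 group means were fitted with limma 3.58.1 (R 4.3.3; lmFit, eBayes), with Benjamini-Hochberg adjustment over 13665 genes, a threshold of 0.05, and 5 contrasts: RIP/input in each kind of cell, its change, the input change and the RIP change. Median replicate SDs were 0.0414 to 0.0771. The test was tried on simulated data. Figures used matplotlib 3.10.9.

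Every member may be named; array values are given for RAB1A, RAB1B, members on the study's proteomic list, the largest changes and paralogs of the same number. Of the genes acting on RABs, the 2 largest rises and falls per list are named, except 1 gene that is not reported here. The members, lists and tests were chosen with earlier results of these data known. Alternatives were other scalings, filters, probe rules and tests, a replicate block, and each array left out.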

Additional observations from a re-analysis of the deposited data

How the results depend on the processing

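The precision is limited by 2 arrays per group and by dim signal in the miR-NC RIP. Of 5055 recomputed values of the 44 members well above background on at least 1 array of every group, 4658 kept their side of the threshold, 118 of them with a change of sign between values that did not pass on either side. A further 189 lost the call, 138 gained it and 70 changed sign with a call on at least 1 side.

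Numbers did not pair the arrays: deviations of arrays with the same number correlated at -0.0396 to 0.0488 between groups. With a replicate block, 20 members rose and 11 fell in enrichment, and 2 rose and 6 fell in the input, beside 2 and 8 without it; the block moved no count of members by over 1.5 times.

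With 1 array left out at a time, the counts of members were 21 to 25 higher and 11 to 13 lower for RIP/input in miR-634 cells, 14 to 16 and 14 to 20 in miR-NC cells, 18 to 21 and 11 to 12 for the fold change of enrichment, 0 to 3 and 2 to 10 for the input change, and 18 to 21 and 12 to 14 for the RIP change. RAB26 had a RIP/input in miR-NC cells of -0.32 without miR-NC RIP 2 and 0.40 without miR-NC RIP 1. RAB24 had 0.43 without miR-NC RIP 2 and -0.51 without miR-NC RIP 1, beside -0.04 with all arrays.

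Scaling on the spike-in probes gave 6 higher and 36 lower for RIP/input in miR-634 cells, 1 and 49 in miR-NC cells, 38 and 2 for the fold change of enrichment, 0 and 6 for the input change, and 38 and 3 for the RIP change. Log2 values that changed sign under it, with a call under either scaling, were, for RIP/input in miR-NC cells, RAB1A -0.16, RAB1B -1.32, RAB3A -0.68, RAB4B -0.98, RAB5C -2.04, RAB7A -0.80, RAB8A -2.44, RAB9A -2.29, RAB12 -1.87, RAB13 -2.43, RAB15 -1.89, RAB18 -2.44, RAB25 -2.21, RAB26 -2.49, RAB28 -1.97, RAB29 -2.52, RAB34 -2.43, RAB36 -1.55 and RAB40C -1.21. For RIP/input in miR-634 cells they were RAB1B -0.40, RAB2B -1.40, RAB3A -0.23, RAB5A -0.98, RAB6A -1.36, RAB6C -1.05, RAB8A -0.37, RAB8B -1.04, RAB11A -0.77, RAB13 -0.96, RAB17 -0.33, RAB18 -1.21, RAB23 -1.28, RAB24 -1.14, RAB25 -1.12, RAB29 -1.07, RAB38 -0.14 and RAB43 -0.55. For the fold change of enrichment they were RAB1B 0.92, RAB2A 0.45, RAB3A 0.45, RAB4A 0.59, RAB5B 0.71, RAB10 0.51, RAB12 0.23, RAB20 0.82, RAB22A 0.95, RAB28 0.50, RAB34 0.89 and RAB35 0.44. For the RIP change they were RAB1A 0.84, RAB1B 0.74, RAB2A 0.22, RAB3A 0.21, RAB4A 0.23, RAB5B 0.49, RAB7B 0.75, RAB8B 0.83, RAB10 0.18, RAB12 0.23, RAB20 0.58, RAB22A 0.72, RAB23 0.57, RAB28 0.30, RAB34 0.60 and RAB35 0.54. This scaling moves all genes of a comparison by the same amount. Under it the positive fold changes of enrichment of RAB1B, RAB5B, RAB20, RAB22A and RAB34 passed the test. With the mean of the probes, the RIP change of RAB1A was 0.20 and the RIP/input of RAB17 in miR-NC cells 0.24, and centered on the median gene, the RIP/input of RAB28 in miR-634 cells was 0.22.

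Without a filter, all 62 members with a probe were tested. For RIP/input in miR-NC cells 25 were higher, beside 44.4% of all genes so tested. For the fold change of enrichment 17 were lower (all genes 39.0%), and for the RIP change 22 (46.9%). For the input change 0 were higher and 4 lower (1.64% and 2.58%). The members this adds had no probe that passed on the input arrays. RAB39A, not well above background on any array, had 1.96 for RIP/input in miR-NC cells, -0.98 for the fold change of enrichment and -1.1 for the RIP change. The authors' processed values and the percentile over all probes each gave 4 members lower in the input. A Student's t-test was also tried, which the study's methods name for statistics in general and not for these arrays. Unadjusted, it gave 5 members higher in the input. After Benjamini-Hochberg adjustment it gave 0 higher and 0 lower in the input, and 7 lower in the RIP. The unadjusted test had 11 lower in each. Both versions of this t-test start from the same p-values and differ in the adjustment alone.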
